A study of Mus musculus with 2 samples.

Results

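Cultured mouse spermatogonia were sorted by how many transcripts of Sall4 were captured in each cell, and cells with 2 or more unique molecular identifiers (UMIs, each the count of 1 captured transcript) were compared with cells holding 0. Germ cells were cells in which the summed UMIs of Ddx4, Dazl, Mael, Dnd1 and Zbtb16 exceeded those of the fibroblast genes Col1a1, Col1a2, Col3a1, Fn1 and Sparc, and only germ cells with at least 9000 UMIs in named genes were kept. Of 1676 cells in all, 1360 met this rule and 954 of them fell into the classes compared. The control library gave 128 cells with 2 or more Sall4 UMIs, 209 with 1 and 328 with 0. The Chd4 siRNA library gave 114, 197 and 384. The question asked of the comparison was which other transcripts differ between the classes, and whether they do so in both libraries.

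The cells were C57BL/6 germ cells taken from adult mouse testes by THY1 selection and grown in serum-free medium with GDNF and bFGF on mitomycin-treated SNL76/7 fibroblasts. They were moved to plastic and transfected with 75 pmol of a non-targeting siRNA or of an siRNA against Chd4, and 24 h later equal numbers of cells from 3 biological replicates were mixed into 1 tube per siRNA and captured with 10x Genomics v2 chemistry. Each siRNA is thus 1 library, the replicates cannot be separated within it, and both libraries share the culture, the lipid reagent and the plating off feeders. Cells of 1 library are not replicates, so the classes were tested over their 4 summed profiles, and no test was possible of a difference between the siRNAs.

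SALL4 is a zinc-finger transcription factor of undifferentiated spermatogonia, where it is needed for cells to move towards differentiation. It binds the nucleosome remodelling and deacetylase complex NuRD, whose ATPase CHD4 was the target of the siRNA, and it also interacts with ZBTB16 (PLZF), a repressor that maintains the stem cell pool. In culture the growth factor GDNF, acting through the receptor RET, keeps such cells dividing without differentiating.

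Both libraries were of similar depth. They held 14826257 and 15920307 named UMIs (control and Chd4 siRNA), and the median germ cell used had 15689 and 16123 UMIs. The 5 germ markers of the rule summed to between 1776 and 1982 CPM (UMIs scaled to a fixed total per class) in every class, and the 5 fibroblast genes of the rule to between 58.2 and 70.7 CPM. In the 4 classes compared, markers of Sertoli cells summed to at most 27.8 CPM, of Leydig cells to at most 2.66, of macrophages to at most 14.6 and of endothelial cells to at most 14.2, and the Leydig genes Cyp11a1, Hsd3b1 and Insl3 were at 0 in all of them. Of the barcodes listed, 1 occurred in both libraries, and 18 cells of the control and 5 of the Chd4 siRNA library were called doublets and kept in. The shallowest germ cells kept held 9042 and 9009 UMIs and the deepest of the 65 left out of each library 8980 and 8986.

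The classes were chosen by the Sall4 UMIs of each cell, so the values of Sall4 itself (ENSMUSG00000027547, mm10 chromosome 2, 168748332 to 168767943, minus strand, protein coding) are a description. In the class with 2 or more UMIs it stood at 148 CPM in the control and 134 CPM in the Chd4 siRNA library, and in the class with 1 UMI at 58.0 and 59.7 CPM. Most cells just passed the limit, 73 of the 128 control cells and 77 of the 114 Chd4 siRNA cells holding exactly 2 UMIs, and the highest counts were 8 and 6 UMIs. Cells with 2 or more made up 19.2% of germ cells in the control library (95% exact binomial interval 16.3% to 22.5%) and 16.4% in the Chd4 siRNA library (13.7% to 19.4%). These intervals overlap and cover counting error only.

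The class with 0 UMIs cannot be read as cells without Sall4. Cells with at least 1 Sall4 UMI made up 50.7% of control and 44.7% of Chd4 siRNA germ cells, and when every cell was thinned to 9000 UMIs the shares were 33.5% and 30.9%. The classes also differed in depth: median UMIs went from 15071.5 with 0 Sall4 UMIs through 16153 to 16500.5 with 2 or more in the control library, and from 15936.5 through 16179 to 16696 in the Chd4 siRNA library. Poisson counts of 1 shared level at equal depth have a variance equal to their mean, and the variance of Sall4 UMIs per cell was 1.46 and 1.32 times its mean as deposited and 1.24 and 1.13 times after thinning. Background was low. Fibroblast-rule cells held a Sall4 UMI in 10 of 79 and 5 of 93 cells (12.7% and 5.38%) at far higher medians of 38655 and 39326 UMIs, and in 2.67% and 2.33% after thinning.

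Chd4, the targeted gene, was first read in every class. Its level was 498 CPM in control cells with 0 Sall4 UMIs, 537 with 1 and 606 with 2 or more, and 239, 267 and 271 CPM in the same classes of the Chd4 siRNA library. All 3 Chd4 siRNA classes lay below all 3 control classes. The log2 ratio of Chd4 siRNA to control was -1.06 (95% interval -1.15 to -0.97) in the 0 class, -1.01 (-1.12 to -0.89) in the 1 class and -1.16 (-1.30 to -1.02) in the 2-or-more class, and these intervals overlap.

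Few transcripts separated the classes. Among 7184 genes with at least 200 UMIs over the 4 sums, Sall4 left out, edgeR's quasi-likelihood test with the library as a block called 65 genes (0.905%), 35 of them higher (0.487%) and 30 lower (0.418%), in cells with 2 or more Sall4 UMIs at a Benjamini-Hochberg adjusted p under 0.05. The called differences were small, all of them under 2-fold as edgeR fitted them. At an unadjusted p under 0.05 the test gave 642 genes, 8.94% of those tested. DESeq2 on the same sums called 0 genes in either direction, with 25 higher and 22 lower at an unadjusted p under 0.05, and edgeR without the library block also called 0 (133 and 160 unadjusted). The calls thus depend on the tool and on the block, and the design leaves 1 residual degree of freedom per gene. The edgeR fit shared the spread over genes (its median prior degrees of freedom were infinite). A gene's own disagreement between the libraries thus had little weight in its p. A small adjusted p is therefore no measure of agreement between the libraries for that gene.

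**Figure D1:**
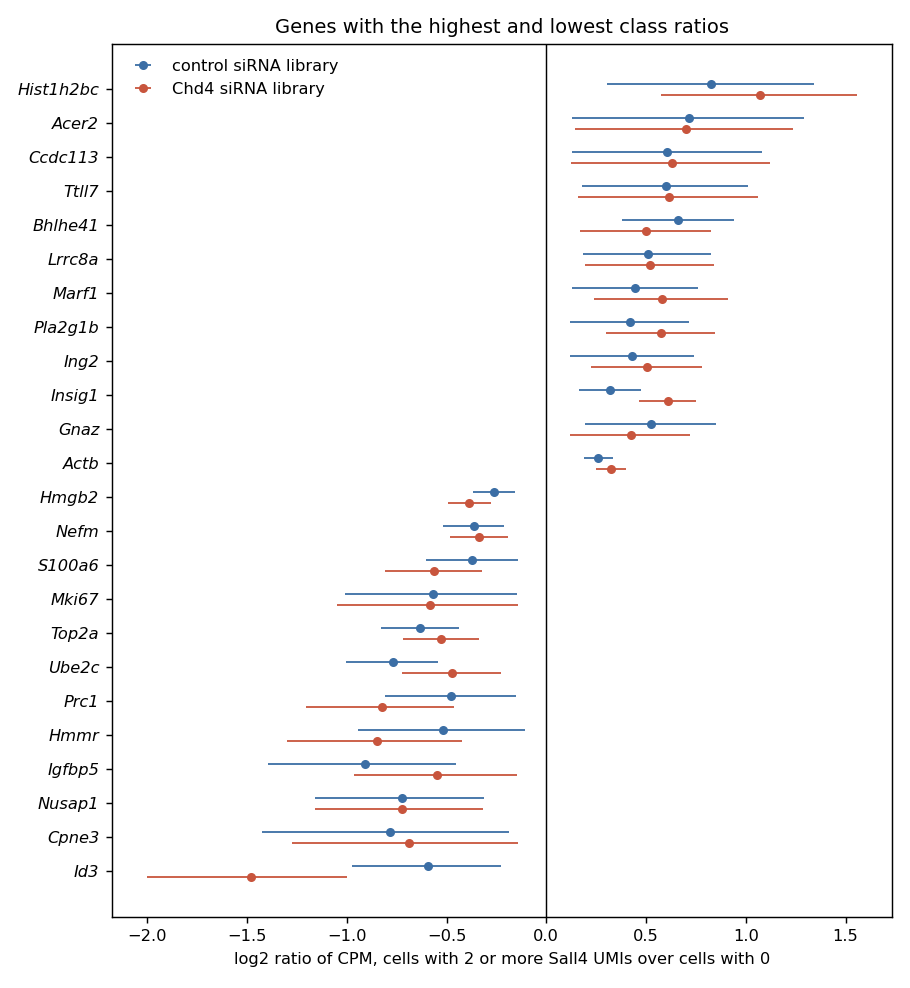
Log2 ratio of the level in cells with 2 or more Sall4 UMIs to that in cells with 0 (x axis) for the 12 genes with the highest and the 12 with the lowest ratios by the interval bound nearest 0 in both libraries (y axis), with points for the control (blue) and Chd4 siRNA (red) libraries and bars for 95% intervals of counting error. Id3 is the only gene shown whose intervals in the libraries do not overlap (-0.59 and -1.48).

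The clearest group of lower genes was that of cell division. Of 48 tested genes of the G2/M list, 10 were called lower and 0 higher (27 in either direction at an unadjusted p under 0.05), against 0.418% lower among all genes: Top2a, Ube2c, Hmgb2, Nusap1, Hmmr, Tubb4b, Cenpf, Birc5, Mki67 and Tpx2. The list's median log2 ratio was -0.29 in the control and -0.22 in the Chd4 siRNA library, where the median of all tested genes was 0.00 in both. In both libraries 37 of the 48 were lower, against 27.2% of all tested genes, and only Gas2l3 was higher, against 27.4%. Top2a, the topoisomerase that untangles chromosomes before division (ENSMUSG00000020914, chromosome 11, 98992943 to 99024189), stood at 182 CPM in control cells with 0 Sall4 UMIs, 164 with 1 and 117 with 2 or more. In the Chd4 siRNA library the values were 192, 135 and 133 CPM. Its log2 ratio was -0.63 (-0.83 to -0.44) and -0.53 (-0.72 to -0.34), with an edgeR adjusted p of 4.4e-09.

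Other genes of mitosis showed the same order of summed levels in both libraries. Ube2c, a ubiquitin-conjugating enzyme that works with the anaphase-promoting complex, fell from 145 to 85.1 CPM in control cells and from 112 to 80.9 CPM in Chd4 siRNA cells (edgeR adjusted p = 3.7e-08). Nusap1, a spindle protein, stood at 43.4 and 26.2 CPM, and at 45.9 and 27.8 CPM (log2 ratio -0.73 in each library, edgeR adjusted p = 0.00055). Hmmr, which helps assemble the spindle, had log2 ratios of -0.52 and -0.85, and the proliferation marker Mki67 had -0.57 and -0.58. Hmgb2, an abundant chromatin protein, changed less, by -0.26 and -0.39. Prc1, which bundles the microtubules of the dividing cell's midzone and is not a member of the list, gave -0.48 and -0.83 (edgeR adjusted p = 0.00029). The share of thinned control cells with an Hmmr UMI did not fall, at 17.7% with 0 and 18.8% with 2 or more Sall4 UMIs. For Nusap1 it was 19.2% and 18.0%. In the Chd4 siRNA library the shares fell, from 25.8% to 14.9% and from 24.2% to 15.8%. Those of Ube2c, Mki67, Hmgb2 and Prc1 were lower in both libraries. The further division genes Ube2s, an anaphase-promoting complex partner, and Fam83d, a spindle protein, also passed the test as lower, and these were picked out after their values were seen.

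For reference, the 250 bases before the transcription start of called G2/M list members are given here, from RefSeq with build GRCm38.p6. Capitals mark CCAAT and TTTGAA on either strand, the latter being the cell cycle homology region element known from promoters of mitotic genes. Top2a (chr11:99024190-99024439, minus strand) holds 6 CCAAT and 2 TTTGAA, Ube2c (chr2:164769679-164769928, plus strand) 6 and 1, Mki67 (chr7:135716380-135716629, minus strand) 3 and 2, and Nusap1 (chr2:119618048-119618297, plus strand) neither. Each is written 5′ to 3′ on the gene's strand.
Top2a: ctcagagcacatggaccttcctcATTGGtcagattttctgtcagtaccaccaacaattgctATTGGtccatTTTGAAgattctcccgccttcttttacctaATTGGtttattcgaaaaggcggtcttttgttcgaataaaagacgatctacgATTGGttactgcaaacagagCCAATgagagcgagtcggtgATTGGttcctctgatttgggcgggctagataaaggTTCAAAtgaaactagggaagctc
Ube2c: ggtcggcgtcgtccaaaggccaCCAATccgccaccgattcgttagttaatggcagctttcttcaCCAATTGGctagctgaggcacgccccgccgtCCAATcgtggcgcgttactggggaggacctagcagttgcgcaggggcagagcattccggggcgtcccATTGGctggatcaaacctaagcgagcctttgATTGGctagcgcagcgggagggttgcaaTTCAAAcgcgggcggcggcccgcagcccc
Mki67: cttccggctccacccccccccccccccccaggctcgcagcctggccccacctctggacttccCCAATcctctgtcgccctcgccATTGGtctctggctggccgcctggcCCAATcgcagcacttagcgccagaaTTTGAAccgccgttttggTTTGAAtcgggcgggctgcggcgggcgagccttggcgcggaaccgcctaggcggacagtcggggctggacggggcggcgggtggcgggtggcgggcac
Nusap1: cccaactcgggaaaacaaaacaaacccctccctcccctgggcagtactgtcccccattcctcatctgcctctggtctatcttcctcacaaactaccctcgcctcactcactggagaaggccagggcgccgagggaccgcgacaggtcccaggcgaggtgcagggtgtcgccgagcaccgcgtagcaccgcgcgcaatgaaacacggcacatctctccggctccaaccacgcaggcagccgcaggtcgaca
In Ube2c a CCAAT and its reverse complement ATTGG overlap. CCAAT on either strand was present in 7 of the 9 called G2/M genes with a promoter in the table (Tpx2 had none) and in 35 of the 46 list genes, against 33.8% of 32851 promoters. TTTGAA was present in 5 of 9 and 19 of 46, against 15.99% of all promoters. These are matches of letters in a fixed window and say nothing on binding or on the Sall4 classes.

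Shares of cell cycle phase calls were set beside the classes. Cells were called G1, S or G2M after thinning, from gene lists that include the G2/M list above, so the calls and that list are not independent. G2M calls made up 26.5% of control cells with 0 Sall4 UMIs, 23.0% with 1 and 16.4% with 2 or more (exact interval 10.5% to 24.0%). In the Chd4 siRNA library the shares were 21.9%, 18.3% and 17.5% (11.1% to 25.8%). The G2M share was lowest in the 2-or-more class of both libraries, with overlapping intervals. The G1 share went opposite ways, from 37.2% with 0 Sall4 UMIs to 43.8% with 2 or more in the control and from 42.2% to 36.8% in the Chd4 siRNA library. The S share went from 36.3% to 39.8% and from 35.9% to 45.6%. Read the other way, Sall4 stood at 56.7 CPM in G1, 54.98 in S and 32.3 in G2M cells of the control library, and at 39.7, 46.9 and 31.1 CPM in those of the Chd4 siRNA library.

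**Figure D2:**
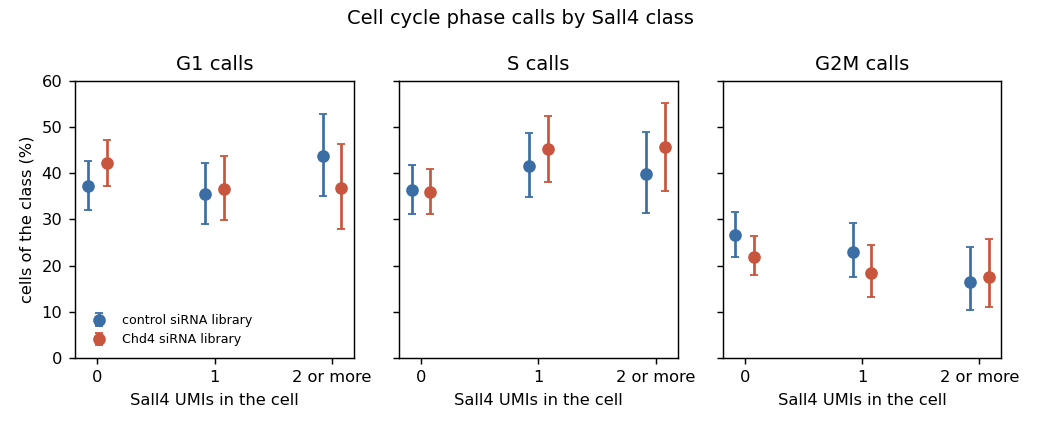
Share of cells called G1, S or G2M (y axis, percent, 1 panel each) in cells with 0, 1 or 2 or more Sall4 UMIs (x axis), with exact 95% binomial intervals as bars, for the control (blue) and Chd4 siRNA (red) libraries. The G2M share goes from 26.5% to 16.4% across the control classes and from 21.9% to 17.5% across the Chd4 siRNA classes, and the intervals overlap.

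With cells called G2M left out, an alternative added after seeing the data, 5 genes were called higher and 7 lower, and the G2/M list's median was -0.09. None of the 9 called G2/M genes that could still be fitted passed. The G2M calls were made with this list, so that loss was partly set in advance. Of 52 other called genes that could be fitted, 10 passed. Actb, Insig1, Acly, Chd4, 2010005H15Rik, Id3, S100a6, Cd63, Rpl9 and Rpl7a still passed. In G1 cells alone, 2 genes were called higher and 2 lower: Insig1 and 1500009L16Rik higher, S100a6 and Lgals1 lower. These fits also rest on fewer cells, 107 and 94 with 2 or more Sall4 UMIs without G2M and 56 and 42 in G1.

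Id3 had the lowest fitted ratio of the called genes in edgeR and in the Chd4 siRNA library, though not in the control library, where Fam83d (-1.11) and Igfbp5 (-0.91) were among those below it. It encodes an inhibitor of basic helix-loop-helix transcription factors (ENSMUSG00000007872, chromosome 4, 136143497 to 136145755). In control cells it stood at 51.9 CPM with 0 Sall4 UMIs, 54.4 with 1 and 34.4 with 2 or more, and in Chd4 siRNA cells at 52.1, 36.1 and 18.7 CPM. The 0 classes of the libraries lay close together, and the 2-or-more class was lower in each. The log2 ratio was -0.59 (-0.97 to -0.23) in the control and -1.48 (-2.0 to -1.0) in the Chd4 siRNA library, with an edgeR adjusted p of 5.3e-08, and these intervals of counting error do not overlap.

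Among the other lower genes, Nefm, a neurofilament subunit, went from 262 to 204 CPM in the control and from 293 to 232 CPM in the Chd4 siRNA library (edgeR adjusted p = 7.8e-05). Igfbp5, which binds insulin-like growth factors, went from 38.8 to 20.6 and from 44.0 to 30.2 CPM, and stood at only 0.945 and 0.548 CPM in the fibroblast-rule cells. Cpne3, a calcium-dependent membrane-binding protein, had log2 ratios of -0.79 and -0.69, with 12.5 to 25.4 CPM in the classes and 115 and 123 CPM in the fibroblast-rule cells. Among thinned control cells, 68.0% held a Nefm UMI both with 0 and with 2 or more Sall4 UMIs. In the Chd4 siRNA library the Nefm shares were 68.5% and 69.3%, so neither library showed a fall. The shares with an Igfbp5 or a Cpne3 UMI were lower with 2 or more Sall4 UMIs in both libraries. The tubulin genes Tubb5, Tuba3a and Tuba3b also passed as lower and were picked out after their values were seen, with log2 ratios of -0.27 and -0.16, -0.20 and -0.50, and -0.26 and -0.87. Tuba3a and Tuba3b are near-identical copies whose reads may be split between them, so their separate values are uncertain.

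Lower genes that fibroblasts express strongly need a further value. S100a6, a calcium-binding protein, went from 118 to 91.2 CPM and from 122 to 82.8 CPM, and stood at 5765 and 6182 CPM in the fibroblast-rule cells. The share of thinned control cells with an S100a6 UMI was 43.9% with 0 and 47.7% with 2 or more Sall4 UMIs. In the Chd4 siRNA library it was 47.9% and 43.9%. Lgals1, a galectin, went from 544 to 424 and from 596 to 547 CPM, against 6285 and 6712 CPM in the fibroblast-rule cells. The fibroblast genes not used by the rule, 14 of 15 of them measured, summed to 737, 719 and 587 CPM in the control classes with 0, 1 and 2 or more Sall4 UMIs, and to 805, 763 and 700 CPM in the Chd4 siRNA classes. Those at 0 in the 2-or-more class were Lum and Tagln in the control and Col5a2, Col6a1 and Lum in the Chd4 siRNA library, while the 5 fibroblast genes of the rule showed no such order (65.6, 66.6 and 65.8 CPM, then 70.7, 58.2 and 65.6). The sum over genes outside the rule includes S100a6 and Lgals1, which made up most of it in every class. Its order is thus largely theirs and is no separate measure. The part of fibroblast RNA in these differences was not tested.

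Higher genes did not fall into 1 group. The gene whose higher level had the widest margin over counting error was Hist1h2bc, a histone H2B gene, at 14.1, 12.2 and 24.9 CPM in the control and 13.9, 27.0 and 29.2 CPM in the Chd4 siRNA library for 0, 1 and 2 or more Sall4 UMIs. The log2 ratio was 0.83 (0.30 to 1.34) and 1.07 (0.58 to 1.56), and the edgeR adjusted p was 0.00029. Among thinned cells, 8.23%, 4.31% and 9.38% of the control classes held a Hist1h2bc UMI. In the Chd4 siRNA classes the shares were 8.85%, 14.2% and 13.2%. The control share thus differed little between the classes compared, and a class-wide rise was not tested. Histone genes share sequence, so reads may be split among copies, and the gene stood at 179 and 151 CPM in fibroblast-rule cells. Actb, cytoplasmic actin, had a small and precise difference: 816 to 977 CPM in the control and 767 to 962 CPM in the Chd4 siRNA library, with 934 and 866 CPM in cells with 1 Sall4 UMI (log2 ratio 0.26 and 0.33, edgeR adjusted p = 1.3e-08). Its level in fibroblast-rule cells was 3482 and 2747 CPM.

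Insig1 and Bhlhe41 were higher in both libraries. Insig1, a membrane protein that holds back sterol synthesis when sterols are plentiful (ENSMUSG00000045294, chromosome 5, 28071363 to 28078662), stood at 186, 201 and 232 CPM in the control and at 192, 219 and 293 CPM in the Chd4 siRNA library. Its log2 ratio was 0.32 (0.17 to 0.47) and 0.61 (0.47 to 0.75), with an edgeR adjusted p of 1.3e-08. Of the 20 tested genes of the cholesterol synthesis list it was the only one called. Acly, which makes acetyl-CoA for lipid synthesis, was also higher (0.22 and 0.48, edgeR adjusted p = 0.0069) and was chosen after its values were seen. Bhlhe41, a transcriptional repressor of the helix-loop-helix family, stood at 48.7, 55.5 and 77.0 CPM in the control and 38.6, 51.2 and 54.6 CPM in the Chd4 siRNA library. Its log2 ratio was 0.66 and 0.50 (edgeR adjusted p = 0.00043). In depth-matched cells Bhlhe41 (0.39) and Acly (0.35) did not pass (edgeR adjusted p = 0.23 and 0.069), while Insig1 did (0.49, edgeR adjusted p = 3.0e-05).

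Further higher genes by the same rule were Lrrc8a, a volume-regulated anion channel subunit (0.51 and 0.52), Ttll7, a tubulin glutamylase (0.60 and 0.62), Marf1, which regulates oocyte RNA (0.45 and 0.58), Pla2g1b, a phospholipase (0.42 and 0.57), Gnaz, a G protein subunit (0.53 and 0.42), and Ing2, a chromatin reader (0.43 and 0.51). All 6 passed the main edgeR test. In depth-matched cells Lrrc8a alone of them passed (edgeR adjusted p = 0.0046). Ttll7, Marf1, Pla2g1b, Gnaz and Ing2 stayed above 0 there, with edgeR adjusted p of 0.16, 0.17, 0.069, 0.13 and 0.069. Acer2, a ceramidase, and Ccdc113, a cilia protein, were also among the 12 highest but did not pass, with edgeR adjusted p of 0.056 and 0.071. The metallothioneins Mt1 and Mt2, which bind zinc, and the zinc transporter Slc39a1 passed as higher and were picked out after their values were seen: Mt1 by 0.07 and 0.26, Mt2 by 0.05 and 0.29 and Slc39a1 by 0.66 and 1.05. The control interval of Mt2, -0.005 to 0.098, includes 0. In depth-matched cells Mt1 (0.06) and Mt2 (0.10) did not pass (edgeR adjusted p = 0.71 and 0.38). Slc39a1 stood at 99.5 and 86.0 CPM in the fibroblast-rule cells.

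**Figure D3:**
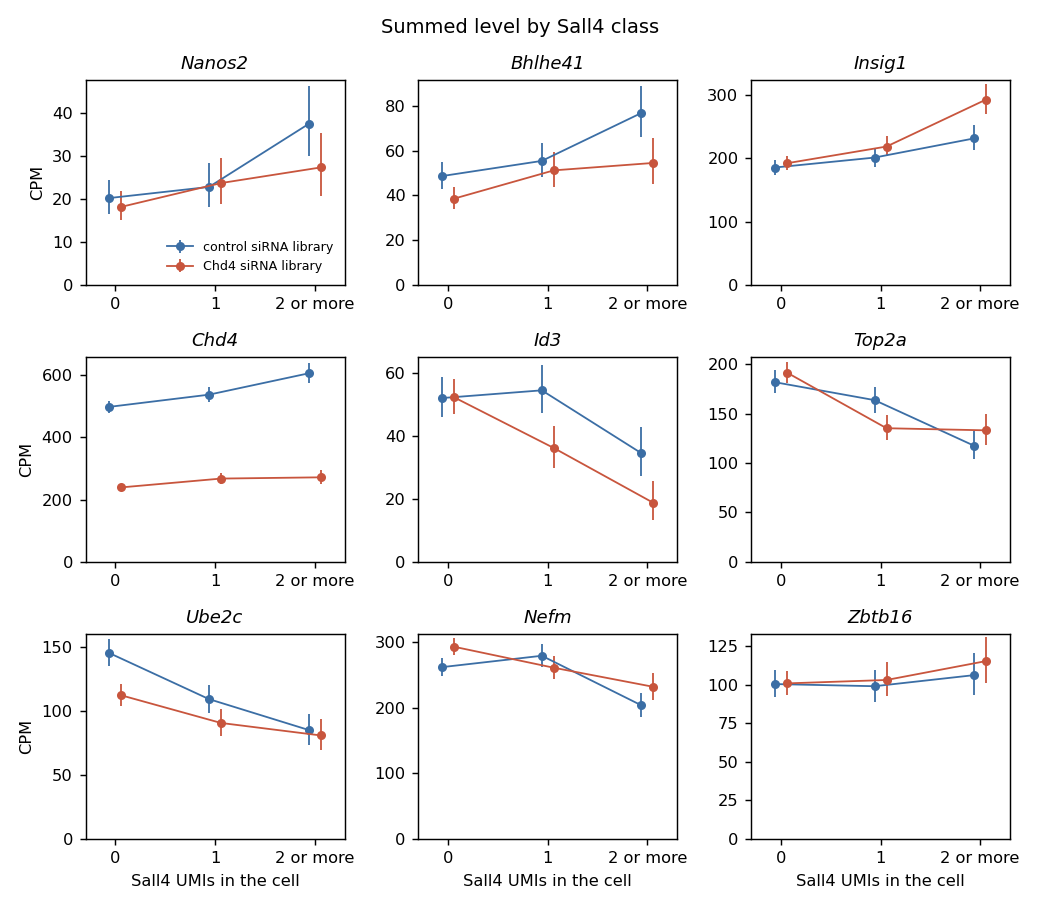
Summed level (y axis, CPM) of 9 genes in cells with 0, 1 or 2 or more Sall4 UMIs (x axis), for the control (blue) and Chd4 siRNA (red) libraries, with 95% Poisson intervals of counting error as bars. Nanos2, Bhlhe41, Insig1 and Chd4 are higher and Id3, Top2a, Ube2c and Nefm lower in the 2-or-more class of both libraries, while Zbtb16 did not pass the test.

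Few genes of the stem and progenitor lists passed the test. Nanos2, an RNA-binding protein that holds germ cells in the stem cell state (ENSMUSG00000051965, chromosome 7, 18987400 to 18988962), stood at 20.2, 22.7 and 37.4 CPM in the control and 18.1, 23.6 and 27.3 CPM in the Chd4 siRNA library. Its log2 ratio was 0.89 (0.47 to 1.31) and 0.59 (0.11 to 1.06), with an edgeR adjusted p of 0.0036. At 9000 UMIs a cell, 16.8%, 16.3% and 25% of the control classes and 14.8%, 15.7% and 19.3% of the Chd4 siRNA classes held a Nanos2 UMI, against 0% and 1.16% of fibroblast-rule cells. Nanos2 was the only one of 12 tested genes of the self-renewal list to pass (4 at an unadjusted p under 0.05), against 0.487% of all genes called higher. In that list Ret, the GDNF receptor, had ratios of -0.27 and -0.32 (edgeR adjusted p = 0.19), Bcl6b, a GDNF-induced repressor, 0.42 and 0.23 (0.11), and Etv5, another GDNF target, 0.01 and -0.00 (1.0).

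Of 11 tested regulators of undifferentiated spermatogonia, edgeR called 2 higher and 0 lower (3 either way at an unadjusted p under 0.05), against 0.487% and 0.418% of all genes. Pou5f1, the pluripotency factor OCT4, stood at 51.7, 64.9 and 58.0 CPM in the control and at 73.1, 64.9 and 108 CPM in the Chd4 siRNA library (log2 ratio 0.17 and 0.57, edgeR adjusted p = 0.028). Its control interval, -0.14 to 0.47, includes 0. Sohlh1, a factor of early differentiation, had ratios of 0.38 and 0.28 (edgeR adjusted p = 0.037). In depth-matched cells neither Pou5f1 (0.39) nor Sohlh1 (0.33) passed (edgeR adjusted p = 0.16 and 0.17). Zbtb16, the SALL4 partner that also served in the germ cell rule, went from 100 to 106 CPM and from 101 to 115 CPM and did not pass (edgeR adjusted p = 0.73).

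In the progenitor list 1 of 8 tested genes passed as higher (3 at an unadjusted p under 0.05), against 0.487% of all genes, with list medians of 0.17 and 0.21. In both libraries 6 of the 8 were higher, against 27.4% of all genes, and 0 lower, against 27.2%. The other 9 of the list's 17 members were not tested. Its edgeR median was 0.17, but -0.08 with classes set anew after thinning. The gene that passed was Ccnd2, the cyclin D2 of dividing progenitors, at 591 and 685 CPM in the control and 605 and 675 CPM in the Chd4 siRNA library (edgeR adjusted p = 0.017). Crabp1, a retinoic acid carrier, had ratios of 0.54 and 0.30 and did not pass (0.17). Meiotic genes gave 0 calls of 13 in edgeR (2 at an unadjusted p under 0.05) and list medians of 0.08 and 0.04, the synaptonemal complex gene Tex12 coming nearest (0.43 and 0.18, edgeR adjusted p = 0.054). Germline RNA and genome-defence genes gave 0 calls of 15 (1 unadjusted), and Dazl, a germ cell RNA-binding protein, had ratios of -0.03 and -0.02.

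The partners and targets of SALL4 were read by the same measure. Of 12 tested NuRD subunits, Chd4 alone passed (2 at an unadjusted p under 0.05), against 0.487% of all genes called higher, and it was higher with 2 or more Sall4 UMIs in both libraries: its log2 ratio was 0.28 (0.19 to 0.38) in the control and 0.18 (0.04 to 0.32) in the Chd4 siRNA library, with an edgeR adjusted p of 0.0038. Hdac2, a deacetylase of the complex, had ratios of 0.20 and 0.15 (adjusted p = 0.40 by edgeR), and Rbbp4, a histone-binding subunit, -0.11 and -0.15. Dusp4, a MAP kinase phosphatase known as a gene repressed by SALL4 in such cultures, had ratios of 0.16 and -0.17 (edgeR adjusted p = 1.0). Foxl1, the other such gene, stood at 2.03 to 4.16 CPM in all classes and was too low to test. Of the other Sall genes, Sall1 stood at 5.16 to 7.27 CPM and Sall2 at 0 to 0.624 CPM, both under the limit of 200 UMIs, and Sall3 was not analysed here.

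Ribosomal protein genes were called in both directions, with small ratios. Of 83 tested, Rplp1 and Rplp0 were called higher and Rpl9 and Rpl7a lower, against 0.905% of all genes called either way, with list medians of -0.02 in each library. At an unadjusted p under 0.05 edgeR gave 23 of the 83, against 8.94% of all genes. In both libraries 40 were lower, against 27.2% of all genes, and 17 higher, against 27.4%. Rplp1 had ratios of 0.09 and 0.10, Rplp0 0.12 and 0.06, Rpl9 -0.12 and -0.11, and Rpl7a -0.07 and -0.20, and reads of such genes may be shared with pseudogene copies. The 81 tested nuclear-encoded respiratory chain genes gave 0 calls in edgeR (8 unadjusted) and medians of -0.04 and -0.02.

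The class ratios agreed between the libraries only in part. Across the 7184 tested genes the log2 ratios of the control and Chd4 siRNA libraries, which share no cells, had a Pearson r of 0.127, given as a description since genes of 1 library share its depth and cells. It was 0.189 over the 4420 genes with at least 500 UMIs, 0.212 over 2500 genes with at least 1000 and 0.324 over 1202 genes with at least 2000. The share of genes with the same sign went from 54.6% through 56.5% with at least 1000 UMIs to 60.1% with at least 2000. A level more than 25% above that of the 0 class in both libraries was found for 90 genes (1.25%) and the same step downward for 86 (1.2%), and as many as 90 genes passed this step in opposite directions (1.25%). Among genes with at least 1000 UMIs the counts were 0, 5 and 0 of 2500 (0%, 0.2% and 0%).

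Genes chosen in one library were then read in the other, where they had not been chosen. Of the 50 genes with the highest scores in the control library, 35 were higher in the Chd4 siRNA library, with a median log2 ratio of 0.12 there against 0.60 in the library that chose them. Of the 50 lowest, 38 were lower, with medians of -0.15 and -0.69. Chosen in the Chd4 siRNA library and read in the control library, 41 of 50 were higher (median 0.19) and 41 of 50 lower (median -0.20). Of all tested genes, 49.4% were higher in the Chd4 siRNA and 50.8% in the control library. The direction was thus kept by most genes chosen, at a smaller size than in the library that chose them.

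**Figure D4:**
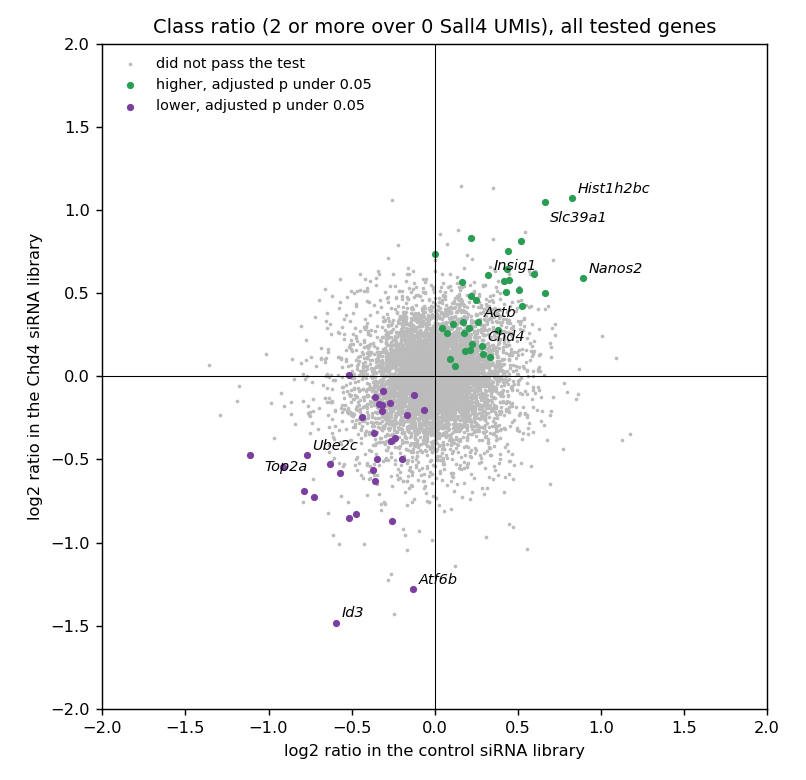
Log2 ratio of cells with 2 or more to cells with 0 Sall4 UMIs in the control (x axis) and Chd4 siRNA (y axis) libraries for all 7184 tested genes, each point 1 gene, with the 35 called higher in green and the 30 called lower in purple. Most called genes lie in the quadrants where both libraries have the same sign, which the choice favours because the calls used both libraries together. The cloud of all genes has an r of 0.127.

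Some called genes rested mostly on 1 library. Atf6b, a stress-response transcription factor, had a ratio of -0.13 (-0.54 to 0.27) in the control and -1.28 (-1.85 to -0.75) in the Chd4 siRNA library, where it went from 38.4 to 15.8 CPM. Hmgn5, a nucleosome-binding protein, had 0.00 (-0.32 to 0.32) and 0.73 (0.47 to 1.0). Arl6ip1, an endoplasmic reticulum protein, had -0.52 (-0.66 to -0.37) in the control and 0.01 (-0.13 to 0.15) in the Chd4 siRNA library, so its sign differed. These 3 genes, chosen after their values were seen, are among 11 named or called genes whose intervals in the libraries do not overlap. The share of all 7184 tested genes with such a gap was not worked out, so nothing is read from this count. The others are Id3, Lgals1, Mt1, Mt2, Rpl7a, Rplp0, Sdc4 and Tuba3b, each with the same sign in both. Counting intervals leave out variation between cells and cultures, and whether these ratios differ between the siRNAs was not tested.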

How the data were processed

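Libraries from 1 pool of cells per siRNA were deposited by the authors as raw UMI counts per gene and cell. The submitters' processing notes name Cell Ranger 2.1.0, Seurat and mm10, with no roles. Of 27998 rows, 26893 had a gene name. The other 1105, with 12.1% and 12.6% of UMIs, were left out, as was the last cell of each matrix, which was incomplete. Counts were summed per class and library into 4 profiles and tested with edgeR 4.0.16 (TMM, library as a block, at least 200 UMIs per gene, 7184 genes). DESeq2 1.42.0 was an alternative. Counts per 10 to the power 6 named UMIs of a class are written CPM, and intervals (95%) are exact binomial or Poisson and cover counting error only. Phases were called with scanpy 1.11.5 on cells thinned to 9000 UMIs. In simulated counts of this comparison (7160 genes in the fit), 38 of 50 genes changed 1.5-fold and 48 of 50 changed 2-fold were called, and 8 of 190 calls were of unchanged genes. The simulation used 1 fitted spread for all genes and the same fold in both libraries. It left out clustering of UMIs in cells and disagreement between libraries, so it gives no error rate for the real counts. Named genes were the 12 highest and 12 lowest by the interval bound nearest 0 in the weaker library, 7 genes of prior interest and up to 4 per list. The members, lists and rules were chosen with earlier results of these data known. Positions are from GENCODE M21. The samples' 3 biological replicates were pooled, so p-values rest only on the spread between these sums. That spread was shared over genes and small, with a common coefficient of variation beyond counting error of 2.59%.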

Additional observations from a re-analysis of the deposited data

Results flagged for a closer look

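Of the gene lists, 3 had medians on opposite sides of 0 in the libraries, and in no case was the difference between the libraries tested. Of all tested genes, 50.8% were higher in the control and 50.6% lower in the Chd4 siRNA library. The S phase list had a median log2 class ratio of 0.07 in the control and -0.10 in the Chd4 siRNA library: 23 of 36 tested genes were higher in the former and 28 lower in the latter. The edgeR median of the S phase list was -0.05, against 0.12 in G1 cells and 0.01 in depth-matched cells. The stress and unfolded protein response list had medians of 0.18 and -0.09, with 10 of 11 genes higher in the control and 10 of 11 lower in the Chd4 siRNA library. Its transcription factors Atf4 and Ddit3, chosen after their values were seen, stood at 124 and 144 and at 84.6 and 100.2 CPM (0 and 2 or more Sall4 UMIs) in the control, and at 149 and 143 and at 102 and 96.2 CPM in the Chd4 siRNA library. The p53 target list had medians of -0.05 and 0.09 over 10 genes. In these 3 lists 0 genes passed the edgeR test, and 6, 0 and 0 had an unadjusted p under 0.05.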

How the results depend on the processing

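With cells thinned to 9000 UMIs and classes kept, 20 genes were called higher, and with classes set anew after thinning 5 higher and 13 lower, of which 4 and 4 were called before. Depth-matched cells gave 14 higher (9 of them called before), 3 or more Sall4 UMIs 14 higher and 17 lower, and 1 or more 1 higher (Actb) and 2 lower (Top2a and Ube2c). Of the called genes that could be fitted in depth-matched cells, 8 of 10 G2/M list genes and 21 of 51 others passed. At least 10 UMIs per gene gave 23 higher, and at least 12000 UMIs per cell 54 lower. G1 cells gave 2 and 2, and cells not called G2M 5 and 7. DESeq2 and no library block gave 0 and 0. The correlation across genes was 0.0598 with classes set after thinning, 0.041 in G1 cells, 0.0723 with at least 10, 0.189 with at least 500 and 0.324 with at least 2000 UMIs per gene. The shares of cells with 2 or more Sall4 UMIs were 6.92% and 5.90% after thinning. The sign turned for Ccnd2 in G1 cells (-0.0755), for Ccnd2 (-0.0753), Rplp1 (-0.0175), Rplp0 (-0.0372), Mt1 (-0.014) and Mt2 (-0.009) with classes set after thinning, Cenpf (0.0386) and Hmgn5 (-0.0565) without G2M cells, Hmgn5 (-0.30), Tuba3a (0.15) and Tuba3b (0.24) in G1 cells, and Arl6ip1 (0.0078) in the Chd4 siRNA library alone. Among list medians, those of the progenitor (-0.0753) and self-renewal (-0.0438) lists also turned with classes set after thinning. The cause was not tested. These fits hold fewer cells per class, down to 46 and 41 with classes set after thinning. The library block pairs the classes within each library, and the fit without it is the unpaired one. Leaving out 1 library leaves ratios with no test, given in the report.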

Other observations

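The lists of immediate early, MAPK feedback, glycolysis and other remodeller genes gave 0 calls in edgeR. The 15 tested immediate early genes (4 with an unadjusted p under 0.05) had medians of -0.02 and -0.06, and Ier5 and Junb, both early-response genes, had log2 ratios of -0.35 and -0.65 and of -0.32 and -0.23 (edgeR adjusted p = 0.14 and 0.35). Jund, another AP-1 gene, stood at 65.2 and 70.9 CPM in the control classes with 0 and 2 or more Sall4 UMIs and at 26.5 and 36.9 CPM in the Chd4 siRNA classes. The 12 tested receptor tyrosine kinase and MAPK feedback genes (0 unadjusted) had medians of -0.01 and 0.02, with Dusp6, a feedback phosphatase, at 0.03 and 0.02. The 10 tested glycolysis genes (3 unadjusted) had medians of 0.05 and 0.07, Tpi1 at -0.50 and -0.38 (edgeR adjusted p = 0.14) being the member farthest below 0 in both libraries. The 17 tested chromatin remodellers outside NuRD (2 unadjusted) had medians of -0.02 and -0.04.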
